A study of Homo sapiens with 17 samples.

Results

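TAL1, FOXD2, DMRTA2 and CDKN2C are 4 protein-coding genes on chromosome 1 of GRCh38. TAL1 (chr1:47216290-47232225, minus strand) and FOXD2 (chr1:47438044-47440691, plus strand) lie near each other, and DMRTA2 (chr1:50417550-50423443, minus strand) and CDKN2C (chr1:50960745-50974634, plus strand) lie about 3 Mb further along. Their promoter contacts were taken from promoter capture Hi-C (PCHi-C) of naive and primed human pluripotent stem cells (PSCs). In PCHi-C, chromatin is cut with HindIII, ends that were close in the nucleus are ligated, and ligation products with a promoter are captured, so that each listed contact joins a baited HindIII fragment to a partner fragment. A bait was assigned to a gene where a GENCODE 44 transcript start of the gene, or the 1000 bp upstream of it, lay in the fragment, since the fourth column of the deposited lists held only a strand sign. This gave 6 bait fragments of the 15982 baits in either list, for 4 of 13393 protein-coding genes with a promoter in a bait. TAL1 had bait 1 (chr1:47222276-47227314), shared with the non-coding RNA gene ENSG00000226252, and bait 2 (chr1:47227864-47247670). FOXD2 had chr1:47435858-47448633, and DMRTA2 had chr1:50422142-50439289, shared with the non-coding RNA gene ENSG00000284700. CDKN2C had the adjoining bait 1 (chr1:50959156-50960425) and bait 2 (chr1:50960426-50961582), and both also hold promoters of FAF1, which runs the other way from the same stretch, so contacts of CDKN2C and FAF1 cannot be told apart.

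TAL1 encodes a basic helix-loop-helix factor needed for blood formation, FOXD2 a forkhead factor, DMRTA2 a DM-domain factor of cortical neural progenitors, and CDKN2C the INK4 protein p18, which inhibits the cyclin D kinases CDK4 and CDK6. Naive and primed PSCs stand for the earlier and later pluripotent states of the embryo. H3K4me1 is a histone mark found at primed and active enhancers and beside promoters.

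Both cell states were the H9 NK2 line, an established human embryonic stem cell line, so all values come from 1 line. Naive PSCs were held with LIF and the inhibitors PD0325901, CHIR99021 and Go6983 on Matrigel, and primed PSCs in TeSR-E8 medium on Vitronectin. The PCHi-C data were 1 contact list per state, each made by the authors from 2 replicates, so the contacts have no replicate check. Hi-C was 1 library per state, and H3K4me1 CUT&RUN, which cuts and sequences DNA around an antibody-bound mark, had 2 naive and 3 primed libraries.

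The sequences upstream of the 4 genes (RefSeq promoters of GRCh38.p14, the 250 bases before the start, found for 4 of 4 genes) are shown because they lie in captured fragments, and 2 partner fragments from the GRCh38 genome because they are short ends of contacts described further on, at DMRTA2 and above FOXD2. They are written 5′ to 3′ on the gene's strand, or on the plus strand for the 2 fragments, with each CG dinucleotide in capitals. TAL1 upstream (chr1:47232336-47232585, minus strand, in TAL1 bait 2) and FOXD2 upstream (chr1:47437794-47438043, plus strand) each held 24 CGs, and 23.7% of 35116 RefSeq promoters held as many. DMRTA2 upstream (chr1:50423444-50423693, minus strand), in an exon of ENSG00000284700, held 18, with 36.8% of promoters as rich. CDKN2C upstream (chr1:50960495-50960744, plus strand, in CDKN2C bait 2) held 7, with 58.9% of promoters as rich. The DMRTA2 intron fragment (chr1:50421897-50422141) directly adjoins the DMRTA2 bait. It also takes in a DMRTA2 transcript start or sequence in the 1000 bp upstream of one. It held 9 CGs in 245 bases, a count reached by 4.07% of windows of that length on chromosome 1, which were not limited to promoters. The FOXD2 distal fragment (chr1:47716790-47716990), outside any named gene, held 1 CG in 201 bases, and 72.7% of windows of that length held at least as many.
TAL1 upstream: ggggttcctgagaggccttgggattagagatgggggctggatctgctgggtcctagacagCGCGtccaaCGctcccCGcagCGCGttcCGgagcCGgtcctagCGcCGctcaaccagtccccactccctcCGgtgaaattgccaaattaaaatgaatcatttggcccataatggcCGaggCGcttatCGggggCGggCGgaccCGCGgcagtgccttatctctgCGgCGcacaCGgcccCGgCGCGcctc
FOXD2 upstream: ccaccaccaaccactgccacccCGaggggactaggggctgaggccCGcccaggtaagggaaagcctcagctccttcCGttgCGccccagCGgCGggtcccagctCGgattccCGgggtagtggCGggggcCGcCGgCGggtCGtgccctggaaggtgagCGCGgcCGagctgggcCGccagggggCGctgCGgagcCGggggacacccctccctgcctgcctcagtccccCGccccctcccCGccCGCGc
DMRTA2 upstream: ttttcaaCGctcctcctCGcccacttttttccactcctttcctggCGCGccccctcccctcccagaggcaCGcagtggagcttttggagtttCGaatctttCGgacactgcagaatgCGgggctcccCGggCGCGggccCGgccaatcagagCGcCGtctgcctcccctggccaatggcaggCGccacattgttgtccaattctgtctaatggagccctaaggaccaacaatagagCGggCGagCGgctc
CDKN2C upstream: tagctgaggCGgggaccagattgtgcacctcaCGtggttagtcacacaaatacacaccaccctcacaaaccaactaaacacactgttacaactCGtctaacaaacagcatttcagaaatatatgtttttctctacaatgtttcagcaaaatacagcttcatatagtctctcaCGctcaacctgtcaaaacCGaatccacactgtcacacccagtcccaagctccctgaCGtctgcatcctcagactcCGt
DMRTA2 intron fragment: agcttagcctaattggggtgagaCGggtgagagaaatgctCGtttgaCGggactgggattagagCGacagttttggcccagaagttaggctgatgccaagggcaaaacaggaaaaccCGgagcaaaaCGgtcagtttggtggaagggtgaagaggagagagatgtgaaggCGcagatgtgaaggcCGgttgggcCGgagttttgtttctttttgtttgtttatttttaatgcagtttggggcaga
FOXD2 distal fragment: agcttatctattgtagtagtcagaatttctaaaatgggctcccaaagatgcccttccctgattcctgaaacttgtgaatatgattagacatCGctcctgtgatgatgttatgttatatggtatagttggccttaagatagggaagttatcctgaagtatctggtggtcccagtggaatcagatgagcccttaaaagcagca

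The naive list held 79330 contacts over 2868657 reads, and the primed list 88985 over 3069060. Each was limited by the authors to CHiCAGO scores of 5 or more, the score being the confidence that a contact exceeds the count expected for its distance, so a contact missing from a list fell under that score and need not be absent. The deposited Hi-C matrices summed to 31310843 naive and 52056334 primed contacts. The naive matrix listed far fewer pairs, so its sum need not be the depth of its library. The H3K4me1 libraries held 9500786 to 37508165 reads over 500 bp tiles. Correlations across fragments between H3K4me1 libraries were 0.825 to 0.890 within a state and 0.555 to 0.602 between states. As a check of the labels, 2 of 4 baits of naive markers differed: H3K4me1 at DPPA5 and DPPA3 was lower in primed PSCs by log2 differences of -2.82 ± 0.37 and -1.72 ± 0.36 (SE), with adjusted p = 1.28e-06 and 0.000542 (limma). At 6 baits of primed markers none passed the test, and none had an unadjusted p under 0.05. Of the markers of blood and endothelium, where TAL1 is used, KDR and CD34 had baits, and their differences of 0.48 and 0.11 did not pass. The neural markers PAX6 and SOX1, where DMRTA2 is used, had 3 baits. That of SOX1 was higher in primed PSCs by 1.35 ± 0.36 (limma, adjusted p = 0.00604), and those of PAX6 did not pass. Beside these marker counts, 1125 of all 15982 baits in either list were higher and 2621 lower in primed PSCs.

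In naive PSCs the 4 genes had 15 listed contacts, and in primed PSCs 146, with 12 in both lists. The plot of contacts per bait shows the gain at all 6 baits. TAL1 bait 1 had 2 naive and 32 primed contacts. TAL1 bait 2 had 2 and 12, and FOXD2 had 8 and 28. DMRTA2 had 3 and 25. CDKN2C bait 1 was not in the naive list and had 25 primed contacts, and CDKN2C bait 2 had 1 and 33. Gains as large were found at 0.588% of the baits for TAL1 bait 1, 6.63% for bait 2, 1.80% for FOXD2, 1.49% for DMRTA2, 1.04% for CDKN2C bait 1 and 0.457% for bait 2. The median distance of a contact was 266 kb in naive and 546 kb in primed PSCs, and none joined another chromosome. Drawing the same number of top-scoring contacts from each list left 15 naive and 135 primed contacts.

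**Figure D1:**
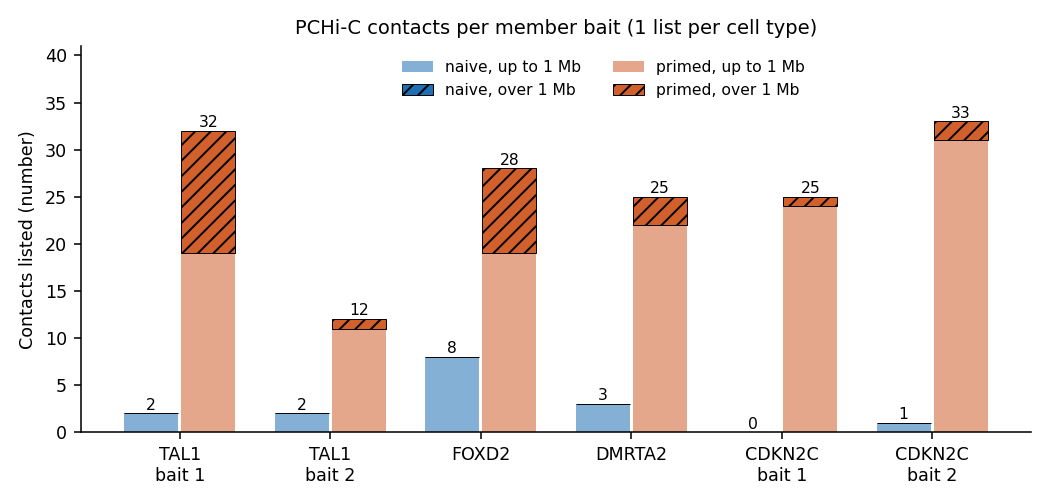
Bars give the number of listed PCHi-C contacts of each bait of TAL1, FOXD2, DMRTA2 and CDKN2C in the naive (blue) and primed (orange) list, with contacts over 1 Mb hatched. Each bait had more contacts in the primed list, from 12 at TAL1 bait 2 to 33 at CDKN2C bait 2, and hatched parts occur in primed bars alone.

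Contacts over 1 Mb numbered 25 in primed PSCs and 0 in naive PSCs, and all 25 were also over 2 Mb. Each of the 6 baits had at least 1 in primed PSCs, where 11.4% of 13583 listed baits did, against 4.04% of 14061 in naive PSCs. They were 13 at TAL1 bait 1, 1 at TAL1 bait 2, 9 at FOXD2, 3 at DMRTA2, 1 at CDKN2C bait 1 and 2 at CDKN2C bait 2, where a contact between 2 of the baits counts for both. As many as TAL1 bait 1 were held by 0.913% of the primed baits, and as many as FOXD2 by 1.61%, while the counts of TAL1 bait 2 and CDKN2C bait 1 were reached by 11.4% each. Read support was low, with 4 to 14 reads per contact and a median of 6, and 2 of the 25 had 10 or more reads. Without TAL1 bait 1, chosen after its values were seen, 15 remained.

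Many of the primed contacts fell at the other genes of the 4 or at DMBX1, a homeobox gene about 735 kb below TAL1, which had no naive contact with them, as the plot of partner positions shows. With a locus taken as a gene and 50 kb on each side, contacts of the 6 baits that joined the loci of 2 different genes numbered 83 in primed and 0 in naive PSCs. With the FOXD2-AS1 bait, which lies in the FOXD2 locus, counted as well, a choice made after seeing the data, there were 95 and 1. DMRTA2 and CDKN2C were joined by 49, TAL1 and FOXD2 by 10, TAL1 and CDKN2C by 8, FOXD2 and DMRTA2 by 7, TAL1 and DMRTA2 by 5 and FOXD2 and CDKN2C by 4. The 49, and so the 83, include contacts of the CDKN2C baits, which also hold FAF1 promoters, with the part of FAF1 that lies in the DMRTA2 locus. Of the 83, 24 were over 1 Mb. At a score of at least 10, 45 of them were left in primed PSCs.

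**Figure D2:**
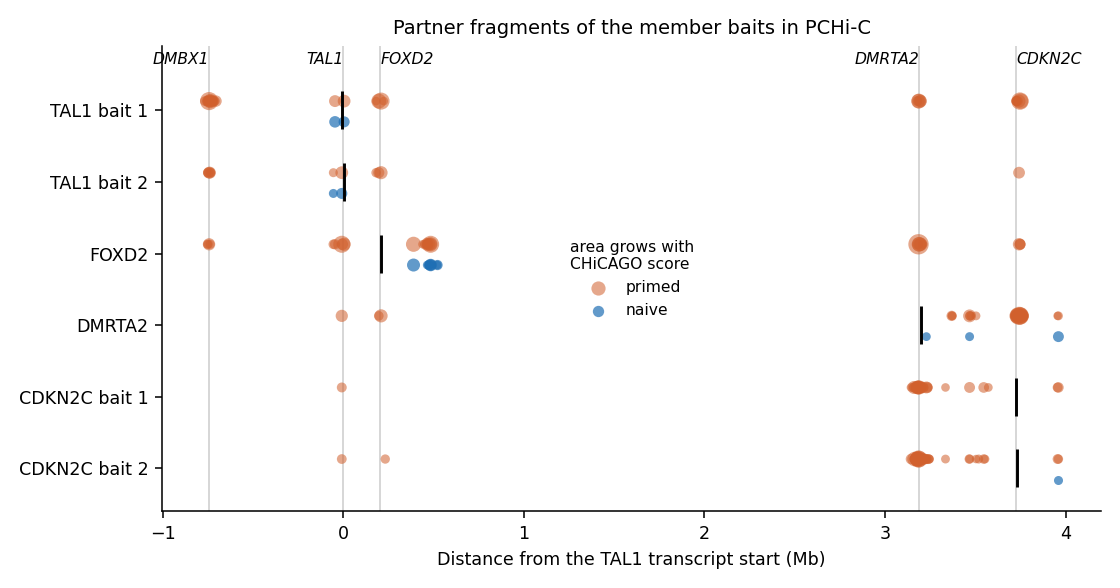
Each point is a partner fragment of the bait named at the left, placed by its distance in Mb from the TAL1 transcript start, with primed contacts (orange) above naive contacts (blue) and area growing with the CHiCAGO score. Naive points lie within 762 kb of their bait (black bar), and primed points also gather at the other genes (grey lines), with a TAL1 contact with PAX7 at 28589 kb off the axis.

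The blood factor gene TAL1 had 3 naive contacts, all with baits within 59.6 kb and all kept in the primed list. Bait 1 contacted bait 2 with 311 naive and 360 primed reads (scores 9.47 and 13.05) and the PDZK1IP1 promoter fragment with 102 and 90 reads (10.45 and 11.18). Bait 2 contacted the fragment of CYP4A22-AS1 and LINC00853 with 59 and 49 reads (5.83 and 5.85). These near contacts thus had similar reads in both lists, and the other 40 primed contacts of TAL1 were in that list alone. The largest group was at DMBX1, with 13 fragments contacted by bait 1 and 6 by bait 2. Bait 1 contacted the DMBX1 promoter fragment (chr1:46486941-46493441) with 28 reads and a score of 27.69, the highest of any TAL1 contact. Next came a fragment just beyond CDKN2C (chr1:50979484-50981100), 3756 kb away, with 11 reads and a score of 25.30, and the FOXD2 bait with 72 reads and 24.37. The most distant partner, at 28589 kb, was a fragment with an exon of PAX7 (chr1:18633886-18637511), a paired box gene of neural crest and muscle precursors, with 4 reads and a score of 9.79.

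The forkhead gene FOXD2 had 8 naive contacts, all 180 to 313 kb above the gene, and 6 of them were also listed in primed PSCs. The highest naive score, 13.61 on 55 reads, was with a baited fragment without a named gene (chr1:47618657-47625477), which scored 18.90 on 68 reads in primed PSCs. The FOXD2 distal fragment printed above followed with 12.41 on 23 reads in naive and 24.17 on 36 reads in primed PSCs, and its neighbour chr1:47714692-47716789 with 10.59 on 20 and 16.35 on 26. The 2 contacts seen in naive PSCs alone were the most distant of the 8 (chr1:47753310-47753978 and chr1:47753979-47755708, scores 5.19 and 7.97). In primed PSCs the strongest contact crossed to DMRTA2: chr1:50416462-50420202, which holds exon sequence of DMRTA2, 2976 kb away, scored 35.18 on 14 reads, the highest score of the 146. The DMRTA2 intron fragment printed above scored 17.29 on 8 reads, as did its neighbour chr1:50420203-50421896, and the DMRTA2 bait itself 14.02 on 8 reads.

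The neural progenitor gene DMRTA2 had 3 naive contacts. They were with chr1:51192405-51193606, 762 kb above it (score 9.20 on 12 reads), with an intron of FAF1 (chr1:50699961-50702100, 5.73 on 19 reads) and with the FAF1-AS1 promoter fragment (chr1:50460483-50463192, 5.47 on 43 reads). The first 2 were also in the primed list, at 5.77 on 8 reads and 13.31 on 35 reads, and the third was not. In primed PSCs 12 of its 25 contacts were with the CDKN2C locus, 529 to 565 kb away and with 10 to 34 reads. The highest scores were 27.92 for the fragment with CDKN2C exon sequence (chr1:50970576-50979483), 25.82 for chr1:50981101-50981447 and 23.32 for chr1:50979484-50981100.

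The CDK inhibitor gene CDKN2C had 1 naive contact, of bait 2 with the baited fragment chr1:51184352-51192404 (5.86 on 31 reads), which scored 7.34 on 37 reads in primed PSCs. Of its 58 primed contacts, 39 were with the DMRTA2 locus, 485 to 585 kb away, 18 from bait 1 and 21 from bait 2. The DMRTA2 locus as taken here overlaps FAF1, whose promoters lie in both baits. Some of the 39 were with fragments inside FAF1, and contacts of FAF1 with its own gene body cannot be told apart from those of CDKN2C. The highest scores were at DMRTA2 itself, from bait 2: 24.69 on 35 reads for chr1:50416462-50420202, 22.71 on 32 reads for chr1:50420203-50421896 and 20.12 on 28 reads for chr1:50414157-50416461. Bait 1 contacted the first of these with 23 reads (15.30) and the second with 24 reads (16.54). Both baits lie side by side, so their contacts are not independent counts of the same locus.

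Direct contacts between baits of different genes were all in the primed list. TAL1 bait 1 contacted FOXD2, DMRTA2 (8 reads, score 11.87) and both CDKN2C baits (6 reads each, scores 7.37 and 7.12). It was the partner contacted by all 4 genes, where TAL1 counts through its own bait 2. TAL1 bait 2 contacted FOXD2 with 35 reads (13.86). DMRTA2 contacted CDKN2C bait 1 with 24 reads (10.93) and bait 2 with 26 reads (11.66). FOXD2 and CDKN2C were joined through fragments beside the baits, up to a score of 12.27 on 6 reads. Of 85 primed partner fragments, 29 were contacted by at least 2 of the genes and 7 by at least 3, against 0 of 16 naive partner fragments. The primed counts include both TAL1 baits, each of which TAL1 contacts from its other bait. Among baits of other genes, the fragments of PDZK1IP1 and of CYP4A22-AS1 and LINC00853 were contacted by TAL1 and FOXD2, that of FOXD2-AS1 by TAL1 and DMRTA2, and chr1:51184352-51192404 by DMRTA2 and CDKN2C.

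Of the 6 pairs, TAL1 and FOXD2 shared most primed partner fragments, 12, which is 37.5% of the TAL1 and 42.9% of the FOXD2 partners. TAL1 and DMRTA2 shared 9 (28.1% and 36%), and FOXD2 and CDKN2C 7 (25% and 20%). TAL1 and CDKN2C shared 5 (15.6% and 14.3%), DMRTA2 and CDKN2C 5 (20% and 14.3%), and FOXD2 and DMRTA2 4 (14.3% and 16%). Partner sets of other baited protein-coding genes were compared with theirs over the primed partners by the Jaccard index. This is the shared fragments over all fragments of either gene. Non-coding genes such as FOXD2-AS1 were not compared. For FOXD2 the nearest was FOXE3, its neighbouring forkhead gene, at 0.241. For TAL1 and DMRTA2 it was PDZK1IP1, at 0.108 and 0.0968. CDKN2C had an index of 1 with FAF1, which has the same baits, and 0.0833 with RNF11.

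Following contacts from fragment to fragment, the naive list placed the TAL1 and FOXD2 baits in 1 connected piece of 78 fragments and 96 contacts, and DMRTA2 and CDKN2C bait 2 in another, of 22 fragments and 25 contacts. In the primed list all 6 baits were in 1 piece of 159 fragments and 289 contacts. With all primed contacts over 1 Mb left out, the piece fell apart into 73 fragments with TAL1 and FOXD2 and 68 fragments with DMRTA2 and CDKN2C. With only the 25 of the 4 genes left out, 158 fragments still formed 1 piece through long contacts of other baits.

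The surrounding baits, from chr1:47176380-47179996 to chr1:51184352-51192404, also had more primed contacts. Of the other 22 baits there, 20 had more contacts in the primed list, 1 in the naive list and 1 an equal number, with medians of 2 naive and 8 primed contacts, and 1 naive and 11 primed baits had a contact over 1 Mb. The FOXD2-AS1 bait, beside FOXD2, went from 11 to 30 contacts, 10 of them over 1 Mb. The AGBL4 bait went from 4 to 19 contacts, 11 of them over 1 Mb, and an ELAVL4 bait (chr1:50175160-50180620) from 0 to 11, all over 1 Mb. Gains and contacts over 1 Mb thus also occurred beside the baits of the 4 genes.

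Among relatives of the 4 genes, some had more primed and some more naive contacts. Of 11 genes of the TAL1 family and complex, 7 had a listed bait, of which LYL1 (5 naive and 7 primed contacts), RUNX1 (3 and 31, all over 1 Mb in both lists) and FLI1 (0 and 10) had more in primed PSCs and TCF3 (8 and 6) and ERG (3 and 2) more in naive PSCs. Of 6 DMRT genes 5 were listed, with DMRT1 (4 and 8), DMRT2 (1 and 22) and DMRT3 (3 and 16) higher in the primed list and DMRTC2 (5 and 4) in the naive list. Of 10 INK4 and cell cycle genes 8 were listed, 4 with more primed contacts, among them CDKN2A (26 and 31) and CDK6 (20 and 30), and 4 with more naive contacts, among them CCND3 (23 and 6). The 4 FOXD genes searched had no bait in either list.

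Hi-C, which does not depend on capture, was read between the 100 kb bins of the genes in the primed library. Counts were 11 for TAL1 and DMRTA2, 11 for TAL1 and CDKN2C, 19 for FOXD2 and DMRTA2 and 16 for FOXD2 and CDKN2C, at 3 to 3.7 Mb. These were 3.15 (1.57 to 5.63), 4.09 (2.04 to 7.32), 4.92 (2.96 to 7.68) and 5.34 (3.054 to 8.68) times the mean of chromosome 1 pairs at the same distance, with exact 95% Poisson intervals that cover counting error only. Counts as high were found at 4.19%, 1.95%, 0.898% and 0.901% of the pairs at those distances. DMRTA2 and CDKN2C, 0.5 Mb apart, had 264 contacts, 3.48 (3.07 to 3.92) times the mean, a count reached by 1.66% of pairs. The intervals of these 5 pairs lay above 1. Those of DMBX1 with DMRTA2, 1.26 (0.259 to 3.68) on 3 contacts, and of DMBX1 with CDKN2C, 1.44 (0.297 to 4.21) on 3 contacts, spanned 1.

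TAL1 and FOXD2, 0.2 Mb apart, had 54 contacts, 0.269 (0.202 to 0.351) times the mean, although PCHi-C listed 10 contacts between them in primed PSCs. The bins of DMBX1 and TAL1 had 0.635 times the mean, and those of DMBX1 and FOXD2 0.574 times. Total coverage of these bins was low, at 0.359, 0.372 and 0.447 of the median bin for DMBX1, TAL1 and FOXD2, against 0.887 for DMRTA2 and 0.995 for CDKN2C. After balancing the bins to equal coverage, the ratio was 0.955 for TAL1 and FOXD2, and the 2 DMBX1 ratios turned to 2.86 and 2.54. Balancing gave 7.13, 7.26, 10.5 and 9.53 for the 4 long-distance pairs in the order above, and 3.71 for DMRTA2 and CDKN2C.

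The long-distance pairs did not stand alone in the Hi-C map. In a window of 70 bin pairs around them the median ratio was 1.60, and FOXD2 with CDKN2C, FOXD2 with DMRTA2, TAL1 with CDKN2C and TAL1 with DMRTA2 ranked 2, 5, 12 and 18. Averaged over 3 by 3 bins, their ratios were 3.19, 3.65, 2.41 and 2.38. For DMRTA2 and CDKN2C the ratio over 3 by 3 bins was 1.59, against 3.48 for the single bins and below the interval given above.

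**Figure D3:**
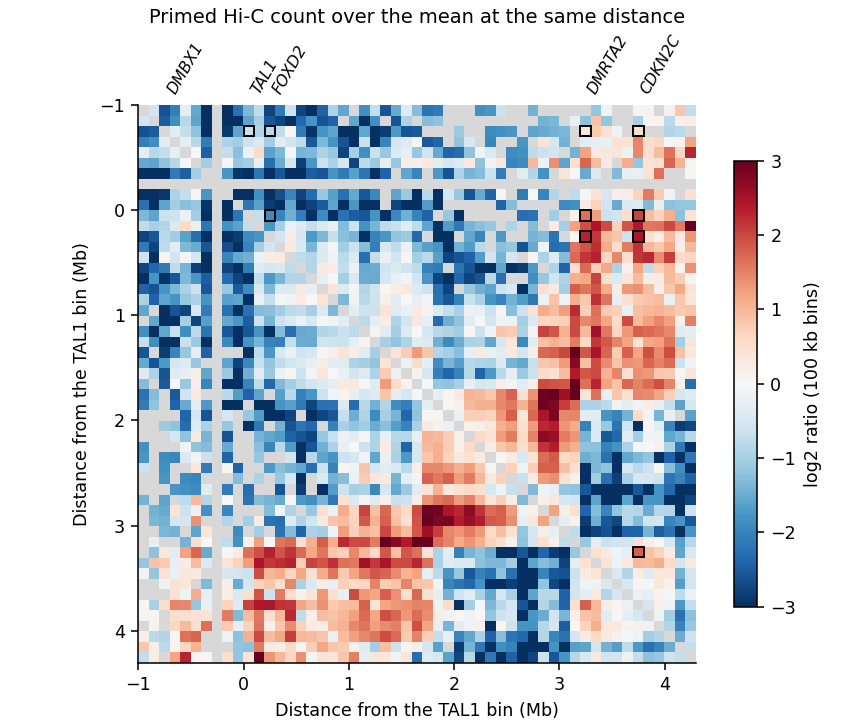
Colour gives the log2 ratio of the primed Hi-C count to the mean of chromosome 1 pairs at the same distance, for 100 kb bins placed by distance in Mb from the TAL1 bin on both axes, with boxes at the pairs of the 5 genes and grey for bins of low coverage or pairs with no count. The 4 boxes that join TAL1 or FOXD2 to DMRTA2 or CDKN2C (ratios 3.15 to 5.34) lie in a wider red block.

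In the naive Hi-C file the 4 long-distance pairs were not listed, but that file held 25296 pairs on chromosome 1, against 447299 in the primed file, and 24 to 37 pairs at each of those distances, so nothing can be read from their absence. How the naive file was filtered is not given in the sources used here, which also limits the naive to primed ratios that follow and the pairs they are set against, since only pairs listed in both files enter. Where both files listed a pair, DMRTA2 and CDKN2C had 57 naive and 264 primed contacts, a ratio of 0.216 (0.159 to 0.288, exact binomial 95% interval). The median ratio of 2106 pairs at that distance was 0.837, and 0.475% were as low. TAL1 and FOXD2 had 20 and 54 contacts, a ratio of 0.370 (0.210 to 0.629), with 0.367% of pairs as low. The pairs of DMBX1 with TAL1 (7 and 25 contacts) and with FOXD2 (4 and 16) had ratios of 0.28 (0.102 to 0.666) and 0.25 (0.0608 to 0.775). Over neighbouring bins the same ratio was 0.755 to 1.06 for the 5 bins, and 0.854 over chromosome 1. The ratios of the 4 pairs were lower than those of the neighbouring bins, in 1 library per state and with the part of the filter not tested.

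H3K4me1 at the 6 baits was compared between 2 naive and 3 primed libraries as the mean over a fragment's tiles of log2 RPM, the log2 read count scaled to library size. TAL1 bait 1 had -0.96 and -0.40 in naive PSCs and 0.05, 0.08 and -0.04 in primed PSCs, a difference of 0.71 ± 0.37 (SE). TAL1 bait 2 had -2.17 and -1.89 against -1.15, -0.94 and -1.16, a difference of 0.95 ± 0.36. FOXD2 had -0.63 and -0.69 against -0.43, -0.33 and -0.54, a difference of 0.23 ± 0.36. At these 3 baits every primed library lay above every naive one, as at 16.2% of all fragments.

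DMRTA2 had -1.75 and -1.56 in naive and -1.47, -1.34 and -1.63 in primed PSCs, and these overlapped. CDKN2C bait 1 had -1.496 and -1.32 against -0.75, -0.55 and -2.02, where the primed libraries lay on both sides of the naive ones. CDKN2C bait 2, with the promoter printed above, had -1.03 and -0.55 against -1.70, -1.27 and -1.73, a difference of -0.78 ± 0.37, with all primed libraries below the naive ones, as at 26.5% of all fragments.

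None of the 6 baits passed an adjusted p of 0.05 (limma, Benjamini-Hochberg over 88413 fragments, of which 8.99% were higher and 14.2% lower in primed PSCs). The lowest adjusted p-values were 0.0546 for TAL1 bait 2, 0.136 for CDKN2C bait 2 and 0.184 for TAL1 bait 1, and 1 bait in each direction had an unadjusted p under 0.05. Both TAL1 baits passed after quantile normalisation, with differences of 0.97 and 1.17, and bait 2 after median centring. Neither passed with the highest tile, limma without trend, all HindIII fragments of the genome or the replicate block. Leaving out any 1 primed library, neither passed either. Over all alternative fits the differences ran from 0.43 to 0.99 at bait 1 and from 0.44 to 1.17 at bait 2. In a mixed culture, fewer marked cells and less mark per cell cannot be told apart. The study's methods call the libraries biological replicates, but the labels do not tell the cultures apart, so the p-values measure the spread between these libraries.

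**Figure D4:**
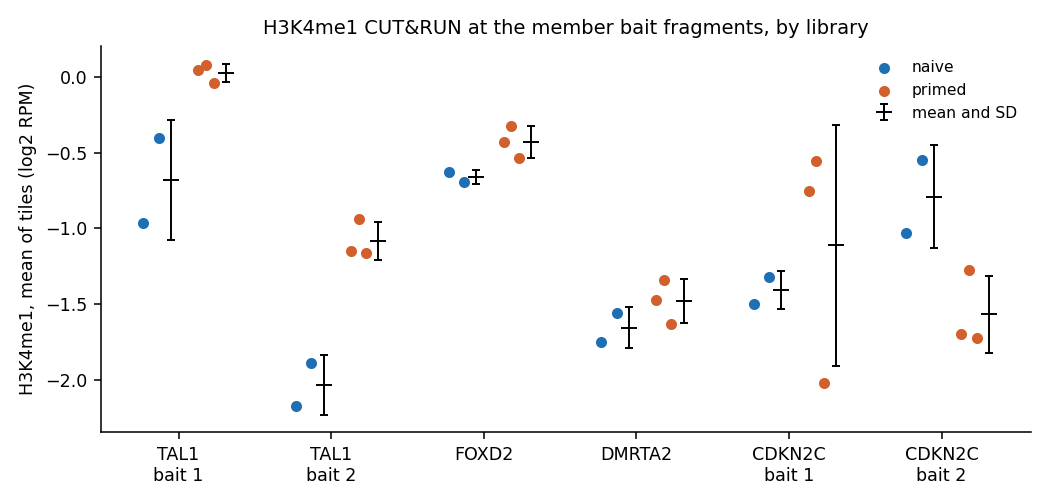
Points are H3K4me1 CUT&RUN libraries, 2 naive (blue) and 3 primed (orange), at each bait of TAL1, FOXD2, DMRTA2 and CDKN2C, as the mean log2 RPM of the fragment's tiles, with the mean and SD of each state as a bar. TAL1 bait 2 shows the widest gap (-2.03 against -1.08), and CDKN2C bait 2 goes the other way (-0.79 against -1.57).

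Single 500 bp tiles were tested where their mean log2 RPM over the 5 libraries was above 0, which held for 5 of 11 tiles of TAL1 bait 1 and 9 of 41 of bait 2. With 3 primed and 2 naive libraries in that mean, this filter lets in more tiles that are high in primed PSCs, and of 185562 tiles tested 12.7% were called higher and 7.71% lower. The differences ran from 0.20 to 1.39 over the tested tiles of TAL1 bait 1 and from -0.13 to 3.12 over those of bait 2. Of 31 tested tiles in the baits of the 4 genes, 3 were called higher, all in TAL1 baits. These 3 had passed the filter through their primed values alone, so the filter had selected them for high primed values. Their number and differences are given as a description, without p-values. The tile chr1:47228501-47229000, in the TAL1 gene, had -0.64 and -2.75 in naive and 1.76, 1.34 and 1.17 in primed PSCs, a difference of 3.12 ± 0.55. Its lower naive value, in naive replicate 2, is the level of 1 read. The tile chr1:47232501-47233000 takes in part of the TAL1 upstream sequence printed above. It had -0.74 and -1.17 against 1.498, 0.93 and 0.99, a difference of 2.10 ± 0.48. The tile chr1:47224501-47225000 had -0.99 and -0.17 against 1.10, 0.72 and 0.62, a difference of 1.39 ± 0.49. In all 3 the primed libraries lay above the naive ones. Over the alternative fits their differences ranged from 2.06 to 4.18, 1.84 to 2.31 and 0.98 to 1.80, in that order. The third did not pass with the replicate block, nor without primed replicate 1 or 3. No tile passed as lower, with 2 at an unadjusted p under 0.05, and edgeR on the reads recovered from the tiles called 5 higher and 1 lower. Without naive replicate 2, 1 tile was called higher, and without primed replicate 2, 1 was called lower. The small CDKN2C baits held 3 and 4 tiles, of which none reached the level tested.

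Of 81 partner fragments that were no bait of the 4 genes, 9 were higher and 6 lower in H3K4me1 in primed PSCs, which is read against 8.99% higher and 14.2% lower among all fragments. The median difference was 0.08 over the partners and -0.06 over all fragments. Partners of TAL1 had 3 higher and 2 lower of 28, and those of FOXD2 5 higher of 27. Partners of DMRTA2 had 2 lower of 22, and those of CDKN2C 2 higher and 3 lower of 33. At the 13 partner fragments of the DMBX1 locus the median difference was 0.61, with 2 higher, and at the 10 of the CDKN2C locus it was -0.14, with none passing and none at an unadjusted p under 0.05. Without naive replicate 1, which had more reads than the other naive library, 3 were higher and 1 lower, and without primed replicate 1 10 were lower.

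The largest rise was at chr1:50470015-50473303, in FAF1 and FAF1-AS1 and contacted by CDKN2C in primed PSCs, with -3.93 and -2.36 in naive and -0.27, -1.04 and -0.83 in primed PSCs, a difference of 2.43 ± 0.41 (adjusted p = 4.60e-05). The PAX7 exon fragment contacted by TAL1 had -1.91 and -1.52 against 0.37, 0.27 and 0.11, a difference of 1.96 ± 0.36 (adjusted p = 0.000137). It did not pass when the highest tile stood for the fragment, with a difference of 0.63. The fragment chr1:47714692-47716789, contacted by FOXD2 in both states and next to the distal fragment printed above, had -2.33 and -2.54 against 0.12, -0.97 and -0.66, a difference of 1.93 ± 0.38 (adjusted p = 0.000294). Both naive libraries were below every primed library at all 3. The fragments chr1:46507257-46512739 at DMBX1 and chr1:47696146-47699310 in LINC01738 rose by 1.39 ± 0.40 and 1.33 ± 0.38 (adjusted p = 0.00916 and 0.00956), and neither passed without naive replicate 1.

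The largest fall was at chr1:50392759-50394599, below DMRTA2 and contacted by CDKN2C in primed PSCs, with -0.82 and -0.83 in naive and -2.79, -2.30 and -3.24 in primed PSCs, a difference of -1.95 ± 0.37 (adjusted p = 0.000219). The fragment chr1:50411389-50412576, contacted by TAL1 and CDKN2C in primed PSCs, had -1.52 and -1.94 against -3.30, -2.99 and -3.40. This was a difference of -1.504 ± 0.40 (limma, adjusted p = 0.00539). The primed replicate 1 value is the level of empty tiles, which is set and not measured. That of primed replicate 2 is near its own such level of -3.13. These 2 fragments had contacts with these genes listed in primed PSCs alone. The fragment chr1:50447785-50448039 in a FAF1 intron, chr1:50703737-50713770 with a FAF1 promoter and chr1:50603704-50604910 in a FAF1 intron had differences of -1.45 ± 0.42, -1.33 ± 0.36 and -1.32 ± 0.46 (adjusted p = 0.0105, 0.00692 and 0.0360). Without naive replicate 1 the largest fall alone passed among these 5, and chr1:50447785-50448039 also did not pass without naive replicate 2, nor chr1:50603704-50604910 without primed replicate 3. With the highest tile standing for the fragment, the difference at chr1:50703737-50713770 was -0.36 and did not pass. Neither chr1:50447785-50448039 nor chr1:50603704-50604910 passed with quantile normalisation, limma without trend or the replicate block. The fragment chr1:50603704-50604910 also did not pass with median centring.

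**Figure D5:**
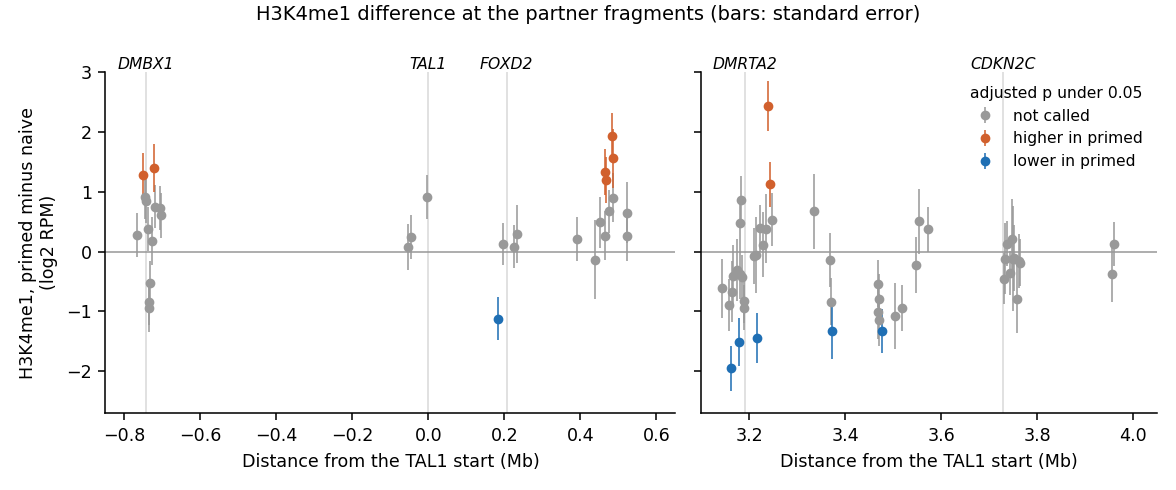
Points are the partner fragments of the 4 genes within the region, placed by distance in Mb from the TAL1 start, with the primed minus naive difference in log2 RPM and its standard error as bars. Orange points (higher in primed, adjusted p under 0.05) lie at DMBX1, above FOXD2 and just above DMRTA2, blue points (lower) just below FOXD2 and from DMRTA2 into FAF1, grey points did not pass, and the PAX7 fragment (1.96) is off the axis.

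Partners listed in primed PSCs alone numbered 67, of which 6 were higher and 6 lower, with a median difference of -0.12. Of the 12 partners in both lists, 3 were higher and 0 lower, with 1 lower at an unadjusted p under 0.05. These 3 were all partners of FOXD2: chr1:47696146-47699310 and the adjoining chr1:47714692-47716789 and chr1:47716790-47716990. They lie close together and the adjoining fragments share a tile, so they are not independent counts. Of the 15 partners in a contact over 1 Mb, 1 was higher and 1 lower, with a median of -0.11. Over all fragments 8.99% were higher and 14.2% lower, and of all 15982 baits 1125 were higher and 2621 lower. At baits of the related genes, 4 of 10 in the TAL1 family were higher, 3 of them baits of FLI1 alone and 1 of ERG, and 1 lower, that of LMO2 (-1.04 ± 0.37, adjusted p = 0.0409). Among DMRT genes, DMRT1 (1.18 ± 0.36, adjusted p = 0.0153) and DMRT2 (1.52 ± 0.36, adjusted p = 0.00196) were higher. Of 10 baits of the INK4 and cell cycle genes none passed, and none had an unadjusted p under 0.05.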

How the data were processed

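PCHi-C, Hi-C and H3K4me1 CUT&RUN of naive and primed H9 NK2 cells were used, grouped by their titles. NANOG, SOX2 and input libraries were not analysed here. Per the study's methods the authors mapped reads to GRCh38 (the submitters' processing notes name Trim Galore 0.4.5 and 0.5.0 and Bowtie2 2.2.7 and 2.3.2) and called PCHi-C contacts with CHiCAGO after combining 2 replicates per state. The deposited PCHi-C lists give read counts and a CHiCAGO score per pair of HindIII fragments, and 100% of 88413 fragments matched HindIII fragments cut from the reference. The deposited Hi-C matrices give raw counts per pair of 100 kb bins. The deposited H3K4me1 table gives log2 RPM per 500 bp tile, in which the authors gave an empty tile the value of 0.9 reads, so values below about 1 read are set and not measured. Whole reads were recovered from it within 0.05.

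From these files, both directions of a contact were merged, and genes were placed with GENCODE 44. Long-range meant over 1 Mb, and a locus a gene with 50 kb on each side. Hi-C ratios used bins with at least 20% of the median coverage and took unlisted primed pairs as 0. H3K4me1 per fragment was the mean of its tiles, fitted on all 88413 fragments with limma 3.58.1 (trend, two-sided, Benjamini-Hochberg) in R 4.3.3, and per tile on 185562 tiles with a mean log2 RPM above 0. The fits were tested on simulated data. Alternatives were other score and read limits, normalisations, filters, edgeR 4.0.16 on recovered reads, a replicate block and leaving out each library. Depth was 9500786 to 37508165 reads per H3K4me1 library, with 15.3% to 52.3% of tiles empty, which limits differences at low tiles. No column of per-sample values was left unused.

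The genes, lists and tests were chosen with earlier results of these data known. Named were all baits of the 4 genes, contacts between their loci and the 3 top-scoring partners per gene and state. Also named were partners with the largest H3K4me1 differences (5 in each direction, adjusted p under 0.05, libraries not overlapping). The most similar baited protein-coding genes, the families and the neighbours were named too. The FOXD2 fragments in the naive list alone, the FOXD2-AS1 alternative and the one without TAL1 bait 1 were chosen after their values were seen.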

Additional observations from a re-analysis of the deposited data

How the results depend on the processing

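PCHi-C and Hi-C have 1 list or library per state, so no contact count carries an error between replicates, and far contacts rest on few reads. H3K4me1 tiles near 1 read are set by depth. A score of at least 7 left 8 naive and 97 primed contacts of the 4 genes, with 6 in both, and at least 10 left 4, 62 and 4, with 12 over 1 Mb and 45 between loci. At least 10 reads left 2 over 1 Mb. With long-range as over 500 kb there were 1 naive and 92 primed. The 2 baits without another gene's promoter, TAL1 bait 2 and FOXD2, had 10 naive and 39 primed contacts, with 8 in both lists. Of the primed ones, 10 were over 1 Mb and 17 between loci. With 2 choices made after seeing the data, counting the FOXD2-AS1 bait as FOXD2 gave 26 naive contacts, 1 between loci and 23 in both lists, and without TAL1 bait 1 15 were over 1 Mb. Balancing reversed the Hi-C ratios of DMBX1 with TAL1 (2.86) and with FOXD2 (2.54), and the cause was not tested beyond the bin coverage given above.

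For H3K4me1, the baits higher in primed PSCs were 2 after quantile normalisation and 1 after median centring. Partners were 0 higher and 0 lower where the mean log2 RPM had to be above 0 (363 and 264 over all fragments), 2 and 0 where 2 libraries had to be above 0 (1766 and 2568), which tested fewer fragments, and 5 and 3 with limma without trend. All HindIII fragments of the genome gave 68503 higher and 56384 lower. Over tiles, the filter of 2 libraries above 0, which kept more tiles, gave 120725 and 121284, with 6 and 1 in the baits, and edgeR gave 23154 lower, with 5 and 1 in the baits. Leaving out each library gave 2543 to 9129 fragments higher and 6480 to 14234 lower, 3 to 10 and 1 to 10 partners, and 11100 to 34439 tiles higher and 1264 to 21987 lower, with 1 to 4 and 0 to 1 in the baits. Where that left 1 naive library, it was assumed to vary like the primed ones.

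The libraries share replicate numbers 1 and 2, but nothing in the labels pairs them, and the deviations of same-numbered libraries correlated at 0.0749 and 0.191. Primed replicate 3 stood alone in its block and added nothing to that fit. With the replicate block 7697 fragments were higher and 10600 lower, 7 and 4 of the partners, and 0 baits, and 2 tiles of the baits were higher.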
